A study of Homo sapiens with 9 samples.

Results

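MGP, CGA, PNCK and SULF1 are 4 genes whose array signal was lower in both GATA3 knockdown and HIF1A knockdown than in si-Control, and they were chosen by the measured fall in these comparisons. They were measured by 5 of 58201 probes, 2 for MGP and 1 for each of the other genes, among 47753 gene names on the array. All samples were OEC-M1 cells, a head and neck squamous cell carcinoma (HNSCC) line, grown in RPMI medium with serum and held at 1% O2 for 18 h, with RNA taken after 72 h of transfection. There were 3 arrays of cells that received a non-targeting siRNA (si-Control), 3 of cells that received siRNA against GATA3 and 3 of cells that received siRNA against HIF1A, the gene of HIF-1α. No array of cells in normal oxygen was analysed here, so every value below is a level in hypoxia. A single siRNA per target is named for the arrays, so what the siRNA did by itself and what the loss of its target did cannot be told apart. The labels do not say whether the 3 arrays of a group came from separate cultures, so P values measure the spread between these arrays only.

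HIF-1α is the oxygen-regulated subunit of HIF-1, a transcription factor that is degraded in normal oxygen and accumulates in hypoxia, and GATA3 is a zinc finger transcription factor that binds the core letters GATA. The 4 genes belong to different families. MGP encodes matrix Gla protein, a small secreted protein that is carboxylated with vitamin K as a cofactor, inhibits calcification of soft tissue and binds bone morphogenetic proteins (BMPs). CGA encodes the alpha subunit shared by the glycoprotein hormones (chorionic gonadotropin, luteinizing hormone, follicle-stimulating hormone and thyrotropin) and is known mainly from placenta and pituitary. PNCK encodes a protein kinase of the calcium/calmodulin-dependent kinase I family, and SULF1 encodes a secreted sulfatase that removes 6-O-sulfate groups from heparan sulfate, the sugar chain through which many growth factors reach their receptors.

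RefSeq promoter windows (build GRCh38.p14, 250 bases before to 50 after each gene start) matched 2 of the 4 genes, CGA with 1 window and PNCK with 5. The bases before the start are shown for CGA and for 1 start of PNCK, because both knockdowns target a transcription factor. The PNCK start was chosen after the matches were seen, as the one with 2 hypoxia motifs that both lie before the start. The CGA sequence is chr6:87095107-87095356 on the minus strand and the PNCK sequence is chrX:153673814-153674063 on the minus strand, both written 5′ to 3′. Capitals mark the motifs found.
CGA: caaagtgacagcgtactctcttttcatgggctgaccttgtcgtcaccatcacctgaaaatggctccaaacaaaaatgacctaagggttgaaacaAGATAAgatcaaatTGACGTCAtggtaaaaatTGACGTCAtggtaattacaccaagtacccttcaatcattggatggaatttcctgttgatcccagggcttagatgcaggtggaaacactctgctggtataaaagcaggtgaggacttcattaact
PNCK: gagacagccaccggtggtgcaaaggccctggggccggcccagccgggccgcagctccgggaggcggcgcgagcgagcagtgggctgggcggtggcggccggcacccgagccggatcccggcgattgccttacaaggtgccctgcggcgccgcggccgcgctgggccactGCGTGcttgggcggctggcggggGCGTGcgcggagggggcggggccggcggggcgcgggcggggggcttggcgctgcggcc
Both strands were searched. For GATA factors the letters were AGATAA and, with another last base, AGATAG, as well as TGATAA and its own variant TGATAG. For the core of the hypoxia response element they were ACGTG and the related GCGTG. The palindromic cAMP response element was searched as TGACGTCA. The CGA window held AGATAA once, from 156 to 151 bases before the start, and TGACGTCA at 142 to 135 and at 124 to 117 bases before it. AGATAA occurred in 10.3% of all 35116 windows and TGACGTCA in 1.85%. At least 1 of the 4 GATA motifs occurred in 25% of windows, and none occurred in the 5 windows of PNCK. The CGA window held neither hypoxia response element core. In the PNCK window shown, GCGTG lay at 81 to 77 and at 58 to 54 bases before the start, and GCGTG occurred in 36.5% of all windows. Over the 5 PNCK windows, 2 held neither core and the others held 2, 5 and 3 matches, and 48.4% of all windows held at least 1 core. The windows with 2 and 5 matches overlap, and the 2 matches shown are among the 5. GC content was 42.3% in the CGA window and 80.3% in this PNCK window. A match is a description of the letters, and no binding was measured here.

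The arrays differed in brightness before normalization, with a median spot intensity from 992.5 on si-Control replicate 3 to 3560 on HIF1A knockdown replicate 1, and from 73.3% to 88.0% of probes were well above background. Each of 3 slides held 1 array of each group, and the slide matched the replicate number. The targeted genes were lower in their own knockdown. GATA3 was 10.71, 11.12 and 11.48 on the normalized log2 intensity scale in si-Control and 9.65, 9.48 and 10.40 in GATA3 knockdown, a log2 difference of -1.26 ± 0.34 (SE, n = 3 and 3), and it was -0.37 ± 0.34 in HIF1A knockdown. HIF1A differed by -2.31 ± 0.35 (SE) in HIF1A knockdown and by -0.04 ± 0.35 in GATA3 knockdown. Of 7 squamous epithelial markers, 5 were well above background on all 9 arrays (KRT14, KRT17, TP63, CDH1 and EPCAM), KRT6A was on 8, and KRT5 was on none. Markers of other cell types also gave signal, with all 3 endothelial markers, both measured immune markers and 2 of 5 fibroblast markers well above background on all 9 arrays, and COL3A1 and LUM on none. Of the 5 PTPRC probes, 2 were well above background on none of the 9 arrays, so this signal depends on the probe. The log2 of the summed squamous markers was between 18.48 and 19.11 on the 3 arrays of slide 3 and between 16.59 and 17.74 on the other 6 arrays. KRT14 and KRT17, the brightest on average, were highest on slide 3 in each group, as was CDH1. KRT6A was lowest there in si-Control (8.88) and GATA3 knockdown (8.31), and TP63 in HIF1A knockdown (11.23). The sum thus does not stand for every marker, and its part in the results was not tested.

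MGP was lower in both knockdowns and lowest in GATA3 knockdown. On the brighter MGP probe (A_33_P3361636), the normalized log2 intensity was 15.64, 15.60 and 16.03 in si-Control, 13.08, 11.83 and 13.26 in GATA3 knockdown, and 13.99, 14.56 and 14.38 in HIF1A knockdown. The 3 groups did not overlap, with si-Control highest, HIF1A knockdown between and GATA3 knockdown lowest. The group means were 15.76 ± 0.24, 12.72 ± 0.77 and 14.31 ± 0.29 (SD, n = 3 each). MGP was thus 8.18-fold lower in GATA3 knockdown (log2 difference -3.03, SE 0.37) and 2.72-fold lower in HIF1A knockdown (log2 difference -1.44, SE 0.37). Within slides 1 to 3, the log2 difference was -2.56, -3.76 and -2.77 in GATA3 knockdown and -1.65, -1.04 and -1.65 in HIF1A knockdown. Every array was well above background for this probe.

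The dimmer MGP probe (A_23_P204286) gave the same order. Its normalized log2 intensity was 13.78, 14.88 and 14.95 in si-Control, 12.01, 11.19 and 12.36 in GATA3 knockdown, and 13.08, 13.62 and 13.24 in HIF1A knockdown. The groups again did not overlap, and the differences were 6.43-fold lower and 2.34-fold lower, respectively.

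**Figure D1:**
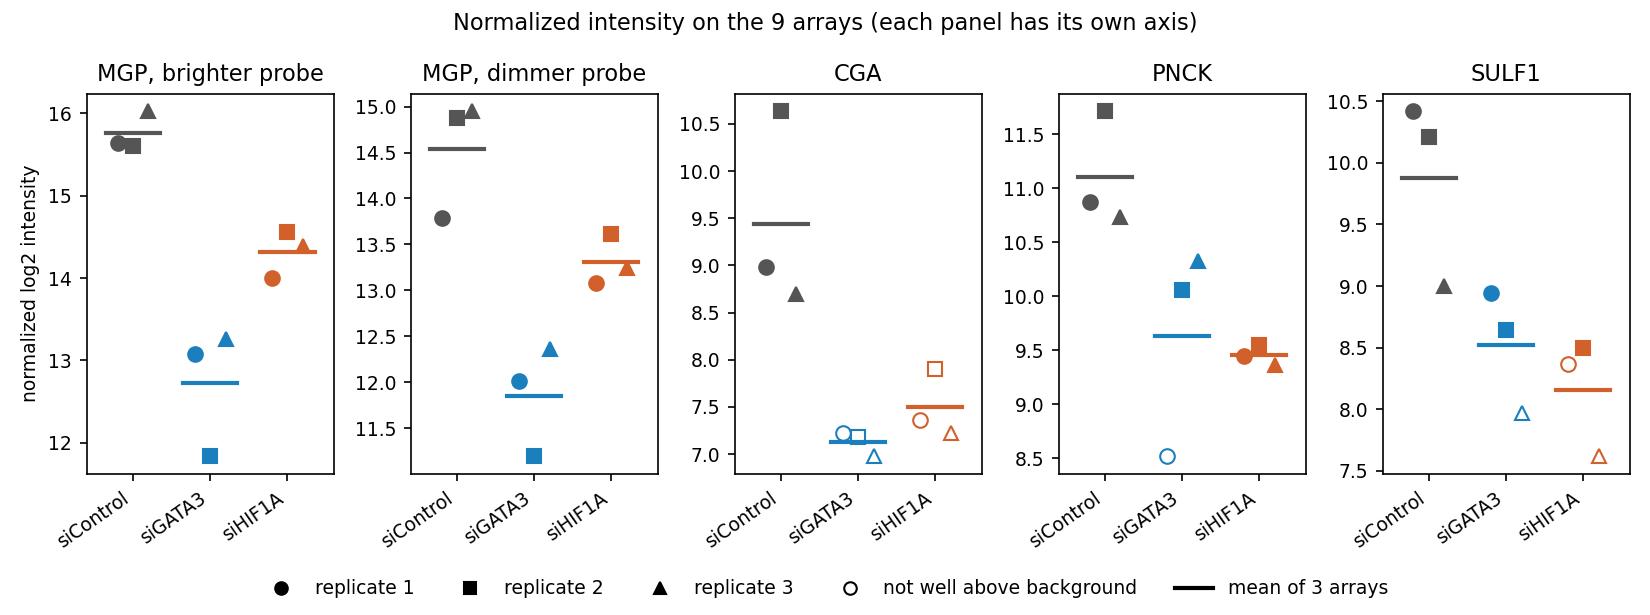
Normalized log2 intensity (y axis, a separate scale in each panel) of the 5 probes on the 9 arrays, by group (x axis). Symbols give the replicate number, open symbols are arrays on which the probe was not well above background, and bars are means of 3 arrays. Every knockdown array lies below every si-Control array in each panel, and the knockdown means lie farthest apart for MGP (12.72 and 14.31).

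CGA was well above background in si-Control alone. Its probe (A_23_P42386) read 8.99, 10.64 and 8.69 on the normalized log2 intensity scale in si-Control, 7.22, 7.18 and 6.97 in GATA3 knockdown, and 7.36, 7.90 and 7.23 in HIF1A knockdown. The groups did not overlap, si-Control replicate 2 stood above the other si-Control arrays, and none of the 6 knockdown arrays was well above background. The group means were 9.44 ± 1.05, 7.13 ± 0.13 and 7.50 ± 0.36 (SD, n = 3 each). The knockdown levels are only bounds. With the limit described next, the fall of CGA was at least 3.77-fold with GATA3 siRNA and at least 3.56-fold with HIF1A siRNA. Each bound sets the si-Control mean against the probe's own signal on a knockdown array, or against the dimmest signal that counted as well above background there, whichever was higher. That limit is the lowest of the whole array and not the limit of this probe. PNCK at 8.52 on GATA3 knockdown replicate 1 was brighter and still not well above background. The same held for SULF1 at 8.36 on HIF1A knockdown replicate 1. The bounds therefore depend on the limit used, and the fall could be smaller. The measured log2 differences were -2.31 and -1.94 (SE 0.45). Within slides 1 to 3 they were -1.76, -3.45 and -1.72 in GATA3 knockdown and -1.63, -2.74 and -1.47 in HIF1A knockdown. Si-Control replicate 2 weighed on these values. Without it the bounds were at least 2.49-fold and at least 2.35-fold, and the measured differences were -1.71 and -1.34.

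PNCK was measured in all groups. Its probe (A_23_P62377) read 10.87, 11.72 and 10.73 on the normalized log2 intensity scale in si-Control, 8.52, 10.06 and 10.33 in GATA3 knockdown, and 9.45, 9.55 and 9.37 in HIF1A knockdown. Both knockdowns lay below si-Control, the HIF1A knockdown arrays lay within a narrow range, and the GATA3 knockdown arrays spread on both sides of them. GATA3 knockdown replicate 1 was the one array on which the probe was not well above background. The group means were 11.11 ± 0.53, 9.63 ± 0.98 and 9.45 ± 0.09 (SD, n = 3 each). PNCK was 2.77-fold lower in GATA3 knockdown (log2 difference -1.47, SE 0.45) and 3.14-fold lower in HIF1A knockdown (log2 difference -1.65, SE 0.45). The GATA3 knockdown difference was uneven over slides 1 to 3, at -2.35, -1.66 and -0.40, and it was -0.91 without GATA3 knockdown replicate 1. The HIF1A knockdown difference was -1.42, -2.17 and -1.36.

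SULF1 was dim in the knockdowns. Its probe (A_23_P43164) read 10.42, 10.21 and 9.003 on the normalized log2 intensity scale in si-Control, 8.94, 8.65 and 7.97 in GATA3 knockdown, and 8.36, 8.50 and 7.62 in HIF1A knockdown. Neither knockdown overlapped si-Control, but the gap was narrow in GATA3 knockdown, whose highest array (8.94) lay just under si-Control replicate 3 (9.003). The probe was well above background on 3 si-Control, 2 GATA3 knockdown and 1 HIF1A knockdown arrays. The group means were 9.88 ± 0.77, 8.52 ± 0.50 and 8.16 ± 0.47 (SD, n = 3 each). SULF1 was 2.57-fold lower in GATA3 knockdown (log2 difference -1.36, SE 0.43) and 3.29-fold lower in HIF1A knockdown (log2 difference -1.72, SE 0.43). With the scanner's own processed signal (75th percentile scaling) the log2 differences were -2.14 and -2.61. In each group the array of slide 3 was the lowest, and the within-slide differences were -1.48, -1.57 and -1.03 in GATA3 knockdown and -2.06, -1.71 and -1.39 in HIF1A knockdown.

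**Figure D2:**
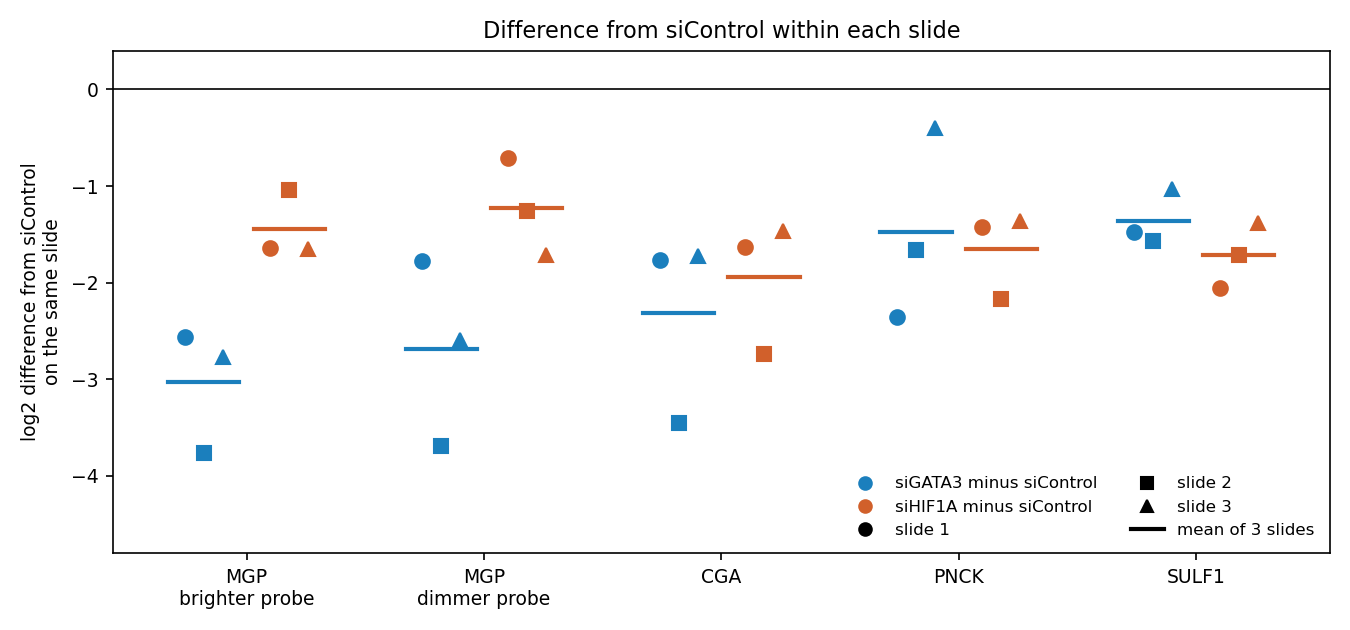
Log2 difference from the si-Control array of the same slide (y axis) for each probe (x axis), in GATA3 knockdown and HIF1A knockdown. Symbols give the slide and bars the mean of 3 slides. All 30 differences are below 0, from -3.76 for MGP to -0.40 for PNCK, both in GATA3 knockdown. A fall on all 3 slides was part of the choice of the genes, so the shared sign is no test.

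These falls chose the genes, so they carry no test here, and both comparisons share the same si-Control arrays. For the background, at an unadjusted limma P of 0.05, 1.36% of 47720 genes tested were lower and 1.58% higher in GATA3 knockdown, and 3.25% of 47368 were lower and 1.97% higher in HIF1A knockdown. Every knockdown array lay below every si-Control array for 3.43% of genes in GATA3 knockdown and for 8.01% in HIF1A knockdown, and for 4 of 4 genes chosen here. After Benjamini-Hochberg adjustment, 0 genes passed in either comparison, of 1404 and 2471 that passed unadjusted, respectively. With array brightness as a covariate, 24 passed adjustment in GATA3 knockdown. With the slide, which is also the replicate number, as a block in the limma fit, 2.07% of genes were lower and 2.89% higher in GATA3 knockdown, and 5.27% lower and 3.14% higher in HIF1A knockdown, with 0 and 6 passing adjustment. There were 55 genes with a symbol that passed unadjusted in both, were lower on all 3 slides in both and were well above background on every array of a group. Ranked by the smaller of their falls, CGA, PNCK, MGP and SULF1 stood first, with SULF1 the last of them at -1.36, and IGFBP3 (-1.33) followed.

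The signals before normalization between arrays differed in how far they separated the groups. The processed signal of the brighter MGP probe, in linear scanner units, was 71855, 61588 and 34009 in si-Control, 5694, 4099 and 6590 in GATA3 knockdown, and 28559, 23382 and 23945 in HIF1A knockdown, with no overlap. For CGA, it was 841, 1752 and 147 in si-Control and between 42 and 117 in the knockdowns, also with no overlap. For PNCK, it was 2310, 3409 and 777 in si-Control, against up to 1021 in GATA3 knockdown and up to 978 in HIF1A knockdown. For SULF1, it was 1620, 1034 and 153 in si-Control, against up to 267 and up to 280. The overlap of PNCK and SULF1 came from si-Control replicate 3, the dimmest array. With each array scaled to its 75th percentile, PNCK no longer overlapped, whereas SULF1 still overlapped in GATA3 knockdown.

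**Figure D3:**
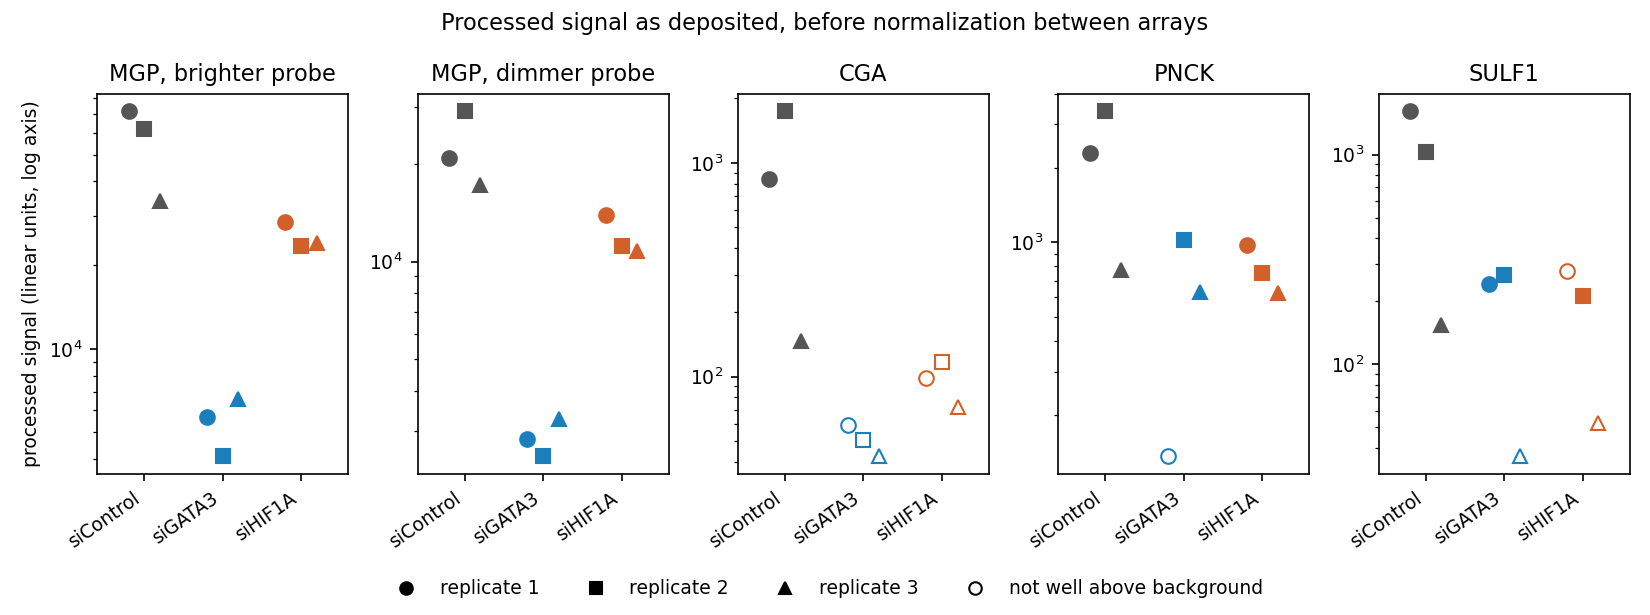
Processed signal of the scanner (y axis, linear units on a log axis, a separate scale in each panel) for the 5 probes, by group (x axis), before any normalization between arrays. Open symbols are arrays on which the probe was not well above background. MGP and CGA do not overlap with si-Control, whereas si-Control replicate 3 lies among the knockdown arrays for PNCK (777) and SULF1 (153).

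The comparison of the knockdowns with each other was not used to choose the genes, although it uses the same arrays, and it asks whether a gene was lower in one knockdown than in the other. MGP was 3.01-fold lower in GATA3 knockdown than in HIF1A knockdown (log2 difference -1.59, 95% confidence interval -2.42 to -0.76), in the same direction on 3 of 3 slides. The unadjusted limma P was 0.00164 and the adjusted P was 0.245, so the difference did not pass adjustment over all genes. The dimmer MGP probe gave -1.46 (unadjusted limma P of 0.00404, adjusted limma P of 0.300 in a fit of all probes). In this comparison 6.94% of 47356 genes were higher and 5.08% lower in GATA3 knockdown at the unadjusted threshold, and 2 of 5689 passed adjustment. With the slide as a block, these shares were 10.5% and 8.19%, and the adjusted limma P of MGP was 0.114. The other genes did not pass the unadjusted threshold, which does not show that the knockdowns acted alike on them. The log2 difference was 0.18 for PNCK (95% confidence interval -0.83 to 1.19) and 0.36 for SULF1 (-0.59 to 1.31). For CGA it was -0.37 (-1.38 to 0.64), between groups in which no array was well above background. The sign of the PNCK difference turned under 4 of 21 alternatives and that of CGA under 1.

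Over the 9 arrays, the genes most like each of the 4 were sought among 17250 genes that rose well over background on every array of at least 1 group. OSR2 (Pearson r = 0.965), FBXO32 (0.957) and TMEM40 (0.948) followed MGP most closely. OSR2, a zinc finger transcription factor, was -1.98 in GATA3 knockdown and -1.15 in HIF1A knockdown as a log2 difference, and FBXO32, a ubiquitin ligase subunit, was -1.54 and -0.40. LINC02214 (r = 0.930), XKR5 (0.882) and CSNK1A1P1 (0.872) were nearest to CGA. XKR5 (r = 0.929), KCNK17 (0.906) and LINC02214 (0.899) were nearest to PNCK, so XKR5 and LINC02214 stood beside both genes, each with falls of under 1 on the log2 scale. SLC3A1 (r = 0.940), C11orf16 (0.914) and IGFBP3 (0.901) were nearest to SULF1, and IGFBP3, an insulin-like growth factor binding protein, was -1.33 and -1.49. Among the 4 genes, r ranged from 0.520 for MGP with SULF1 to 0.829 for CGA with SULF1. These correlations share the 3 groups and the 3 slides, and the genes were chosen for a common pattern, so they are given as a description.

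Few genes of the related pathways passed the threshold against si-Control without a block for the slide. Of the genes measured in 6 lists of related genes (18, 19, 10, 17, 28 and 13 genes), 1 was lower (0.952%) and 2 were higher (1.90%) in GATA3 knockdown, and 2 were lower (1.90%) and 5 higher (4.76%) in HIF1A knockdown, at the unadjusted limma threshold. These shares stand beside 1.36% and 1.58% of all genes in GATA3 knockdown and 3.25% and 1.97% in HIF1A knockdown. Between the knockdowns, 6 list genes were higher (5.71%) and 7 lower (6.67%) in GATA3 knockdown, beside 6.94% and 5.08% of all genes. No list gene passed adjustment, with a smallest adjusted limma P of 0.199 over the 3 comparisons. The counts rose with the slide as a block, to 10 higher (9.52%) and 2 lower (1.90%) in GATA3 knockdown, 9 higher (8.57%) and 4 lower (3.81%) in HIF1A knockdown, and 9 higher (8.57%) and 13 lower (12.4%) between the knockdowns, again with no gene past adjustment (smallest adjusted limma P of 0.0853). Over all genes, the shares with the block were 2.89% higher and 2.07% lower in GATA3 knockdown and 3.14% and 5.27% in HIF1A knockdown. Between the knockdowns they were 10.5% and 8.19%.

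The first list held 18 genes of other vitamin K-dependent Gla proteins and of their carboxylation. Its median log2 difference was 0.09 in GATA3 knockdown and -0.22 in HIF1A knockdown, against -0.02 and -0.01 over all genes. GAS6, a vitamin K-dependent ligand of TAM receptors, rose in both knockdowns, by 1.11 and 0.88 on the log2 scale (unadjusted P = 0.0106 and 0.0316, limma). VKORC1, which recycles vitamin K, fell by 1.11 on the log2 scale in HIF1A knockdown (unadjusted P = 0.00436, limma). GATA3 knockdown exceeded HIF1A knockdown by 1.41 for VKORC1, 0.83 for F2 (prothrombin) and 0.71 for F9 (coagulation factor IX). GGCX, the gamma-carboxylase itself, was -0.43 in both knockdowns and was not called.

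Among 19 calcification and BMP partners of MGP, 0 genes passed in either knockdown against si-Control. With the slide as a block, 3 rose in GATA3 knockdown, the BMP receptors ACVR1 (0.93) and BMPR2 (0.61) and the co-receptor ENG (0.54), and BMP7 rose in HIF1A knockdown (0.86). With that block, 2.89% of all genes were called higher in GATA3 knockdown and 3.14% in HIF1A knockdown. BMP4 was -0.49 in GATA3 knockdown and 0.06 in HIF1A knockdown as a log2 difference, and BMP2 was not well above background on any array. Between the knockdowns, SPP1 (osteopontin) was lower in GATA3 knockdown by a log2 difference of -1.07 and BMPR2, a BMP receptor, was higher by 0.84. The BMPR2 probe was well above background on 2 si-Control, 3 GATA3 knockdown and 1 HIF1A knockdown arrays. BMP7 differed by -1.06 on its brightest probe, but its other 2 probes gave 0.09 and 0.22.

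The list of glycoprotein hormone subunits and receptors held 10 measured genes other than CGA. Of these, CGB3, a beta subunit of chorionic gonadotropin, rose by 0.91 on the log2 scale in HIF1A knockdown (unadjusted P = 0.0271, limma) and was -0.01 in GATA3 knockdown. The beta subunit genes are nearly identical in sequence, so the member measured is uncertain, and CGB2 read 0.68 and LHB 0.46 in HIF1A knockdown without passing. The list's median log2 difference was -0.04 in GATA3 knockdown and 0.47 in HIF1A knockdown, whereas CGA itself was lower in both. With the slide as a block, TSHB, the thyrotropin beta subunit (1.04), and GPHA2, another alpha subunit (0.80), also rose in HIF1A knockdown. Of 6 markers of placental trophoblast and pituitary, 5 were well above background on all 9 arrays, and PITX1 alone was called, higher in HIF1A knockdown. On any single array, 73.3% to 88.0% of all probes were well above background, so the count does not set these markers apart. The log2 of their summed intensity lay between 15.74 and 16.28 in si-Control, 15.96 and 16.33 in GATA3 knockdown, and 16.25 and 16.44 in HIF1A knockdown. Their part in the CGA values was not tested.

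Of 17 calcium/calmodulin-dependent kinases, calmodulins and related genes measured beside PNCK, 0 passed in GATA3 knockdown and 2 rose in HIF1A knockdown. The 2 were CAMK2G, a subunit of CaM kinase II, by 0.79, and CAMK2N2, an inhibitor of that kinase, by 0.67 on the log2 scale. CAMK1, the nearest named relative of PNCK in the list, was 0.19 in GATA3 knockdown and -0.87 in HIF1A knockdown and did not pass. Between the knockdowns, CAMK4 was 0.99 higher in GATA3 knockdown, and CALM3 (-0.63) and CAMK2N2 (-0.70) were lower. The other CALM3 probe gave -0.36 and did not pass (unadjusted limma P of 0.170).

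Around SULF1, 28 genes of heparan sulfate synthesis and 6-O-sulfation and 13 core proteins were measured. SULF2, the other 6-O-endosulfatase, was 12.22 in si-Control on the normalized log2 intensity scale and differed by -0.03 in GATA3 knockdown and -0.26 in HIF1A knockdown, neither of which passed. HS2ST1, the 2-O-sulfotransferase, was lower in both knockdowns on its brightest probe (-0.99 and -0.69), but its other probe gave 0.40 and -0.39. HS6ST2, which adds the 6-O-sulfate that SULF1 removes, rose by 0.63 in GATA3 knockdown. With the slide as a block, 4 synthesis genes rose there, with EXT2 (0.78), EXTL2 (0.85) and B4GALT7 (0.73) beside HS6ST2, and 2.89% of all genes did. SDC1 (syndecan-1), a cell surface heparan sulfate proteoglycan, rose by 1.24 in HIF1A knockdown (unadjusted P = 0.00532, limma). Between the knockdowns, B4GALT7 was 1.01 higher in GATA3 knockdown, and EXTL1 (-1.02) and GPC1 (-0.67) were lower. Among 5 fibroblast markers, a cell type in which SULF1 and MGP are well known, DCN (decorin) was -1.08 in GATA3 knockdown and 0.33 in HIF1A knockdown, and its dimmer probe gave -0.29 and 0.72. The brighter DCN probe was well above background on 3 si-Control, 1 GATA3 knockdown and 3 HIF1A knockdown arrays. The dimmer probe was so on only 2 of the 9 arrays. DCN was the only one called. COL1A1 was 0.03 in GATA3 knockdown and 0.82 in HIF1A knockdown, and PDGFRB, the brightest, was 0.02 and 0.12. The log2 of the summed fibroblast markers was 15.65 to 17.01 in si-Control, 16.14 to 16.62 in GATA3 knockdown and 16.28 to 16.63 in HIF1A knockdown. COL3A1 and LUM were not well above background on any array. All samples were the same cultured line. On these bulk arrays, fewer cells with a transcript and less of it per cell cannot be told apart.

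**Figure D4:**
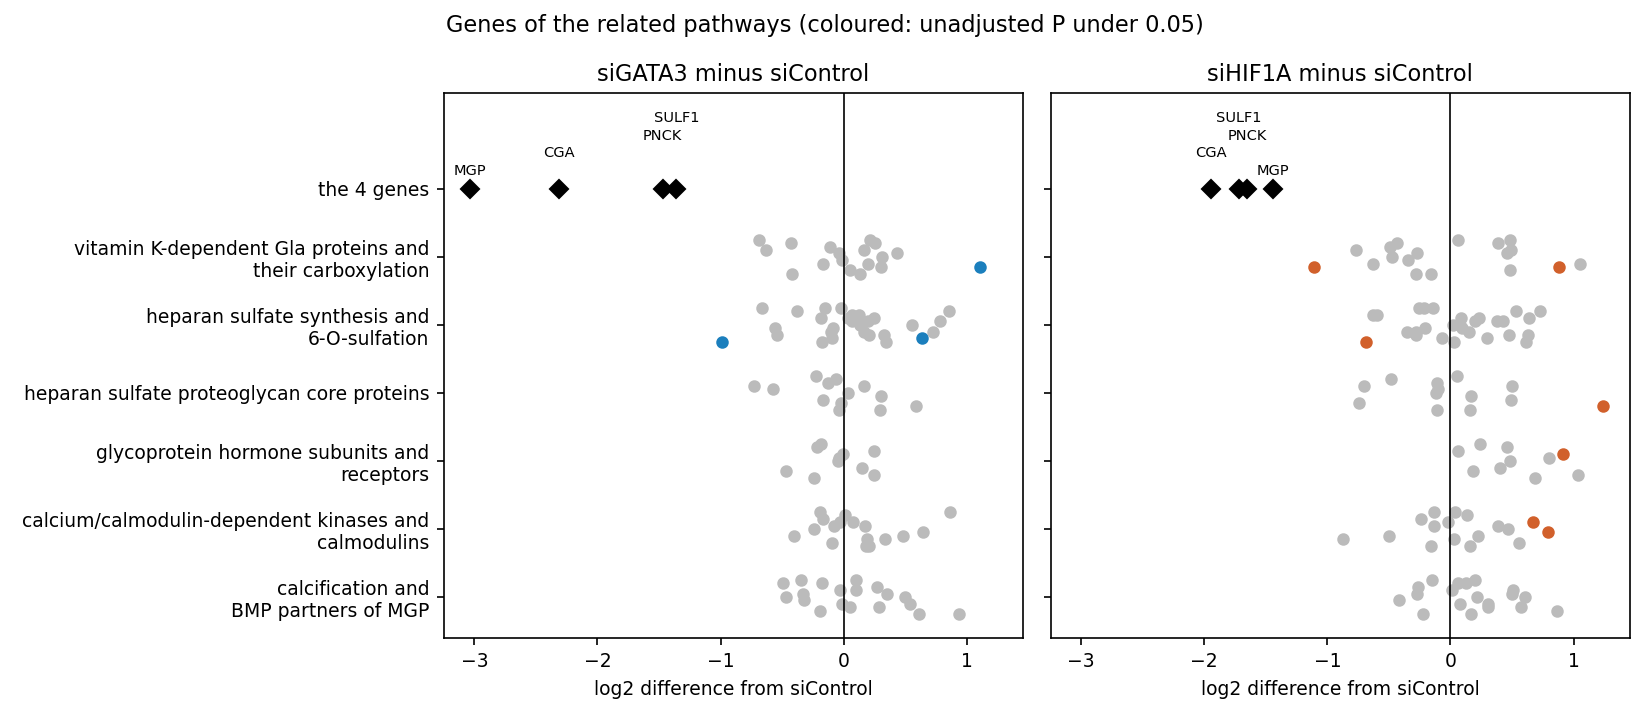
Log2 difference from si-Control (x axis) of the genes of the 6 related lists (y axis) in GATA3 knockdown and HIF1A knockdown, with the 4 chosen genes as black diamonds. Coloured points passed an unadjusted limma P of 0.05, and grey points did not. All list genes lie to the right of the 4 chosen genes in both panels.

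The size of the falls depended on the processing. Over 21 other settings, each of the 4 genes was below si-Control in both knockdowns on every one. The genes were chosen for a fall, so this shared sign is no test. Leaving out 1 array could not turn a sign, because no knockdown array overlapped si-Control as reported. A block for the slide could not change a difference, because each slide held 1 array of each group. The log2 difference of CGA ranged from -3.48 to -1.71 in GATA3 knockdown and that of SULF1 from -2.16 to -1.08. MGP was the steadiest in GATA3 knockdown, from -3.30 to -2.59.

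**Figure D5:**
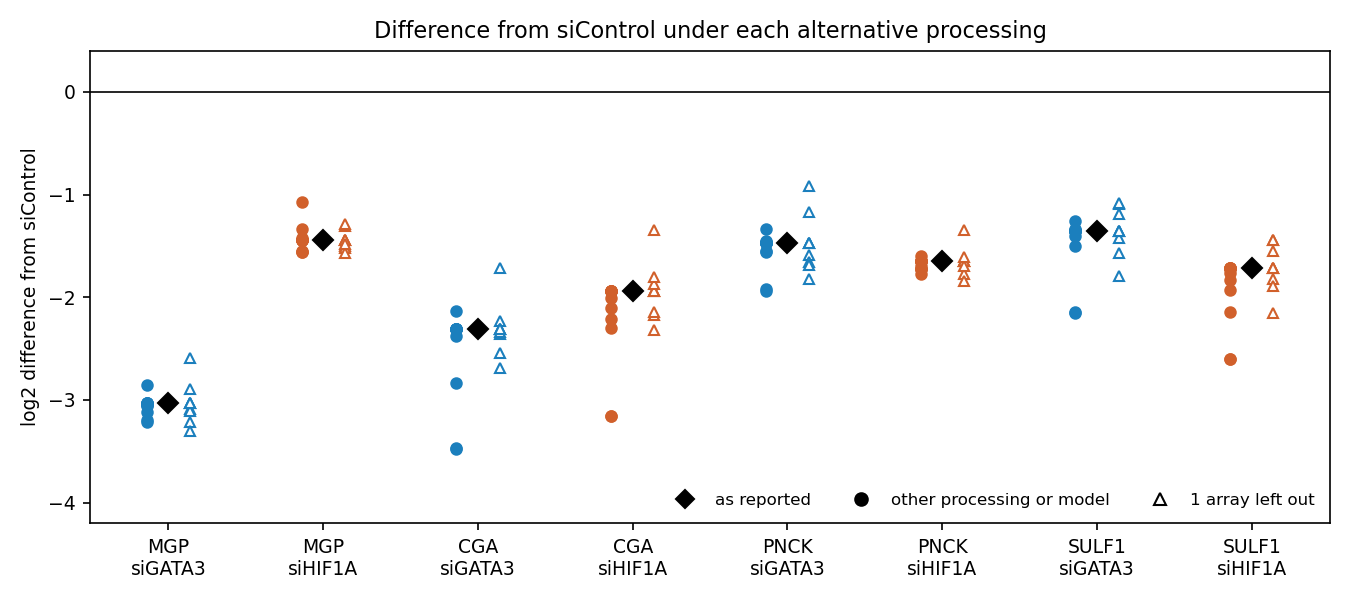
Log2 difference from si-Control (y axis) of each gene in each knockdown (x axis). Diamonds are the values as reported, filled circles are other processing or models, and open triangles leave out 1 array. All values are below 0, and the farthest from the reported values are those of CGA and SULF1 on the processed signal.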

How the data were processed

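The authors deposited 1 scanner file per array (Agilent Feature Extraction 10.5.1.1, from the submitters' processing notes), with the median and the processed intensity of each spot before any normalization across arrays. They also deposited a log2 table, in which 99.2% to 99.3% of an array's values equalled its log2 processed intensity minus a constant, to within 0.001. The spot medians were background corrected (normexp, offset 50), spots marked non-uniform were set to missing, and arrays were quantile normalized. Control spots were dropped, and the brightest probe stood for a gene. RefSeq accessions gave symbols to 31104 of 58201 probes. The 3 groups were fitted together with limma 3.58.1 in R 4.3.3 (lmFit, eBayes), with a two-sided unadjusted P of 0.05 as in the study's methods. The fit was tested on simulated data. Slide, read from the file headers, equals replicate number. Deviations of same-numbered arrays correlated by 0.22 to 0.72 between si-Control and GATA3 knockdown, over 0.1 for every pair. Arrays of these groups with other numbers correlated by -0.69 to 0.47. Si-Control replicate 1 was closer to GATA3 knockdown replicate 2 (0.47) than to replicate 1 (0.22), so these correlations do not pair every array. Same-numbered arrays did not reach 0.1 for every pair in the other comparisons (0.066 to 0.61 and -0.19 to 0.34). The number of arrays limits the precision.

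The 4 genes and the lists were chosen with earlier results of these data known. Genes named are the chosen genes, the targets, list genes past the threshold (at most 4 per list and comparison), the 3 most alike per gene, and the gene next in rank. One gene is not reported here. Other list genes and markers were named after their values were seen. Array files give build hg19, so no probe coordinates are printed.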

Additional observations from a re-analysis of the deposited data

How the results depend on the processing

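In both knockdowns, the 4 genes kept a lower mean than si-Control under all 21 alternatives, and MGP also on its other probe, which was chosen after seeing the data. For leaving out 1 array and for the replicate block, this sign was fixed in advance. The groups did not overlap as reported, and each slide held 1 array of each group. With the processed signal at the 75th percentile and with the authors' log2 table, respectively, the log2 difference was -3.46 and -3.48 for CGA and -2.14 and -2.16 for SULF1 in GATA3 knockdown, and -3.16 and -3.15 for CGA and -2.61 and -2.60 for SULF1 in HIF1A knockdown. With array brightness as a covariate, MGP in HIF1A knockdown was -1.08. Leaving out 1 array gave from -3.30 to -2.59 for MGP, -2.69 to -1.71 for CGA, -1.82 to -0.91 for PNCK and -1.80 to -1.08 for SULF1 in GATA3 knockdown. In HIF1A knockdown it gave -1.57 to -1.28, -2.32 to -1.34, -1.84 to -1.35 and -2.16 to -1.45, respectively. Between the knockdowns, MGP passed the unadjusted threshold in all 22 alternatives, with adjusted limma P from 0.0629 to 0.695 and a log2 difference of -1.86 to -1.14 when 1 array was left out. The sign turned for PNCK on the processed signal (-0.20), in the authors' table (-0.22), without GATA3 knockdown replicate 2 (-0.03) and without replicate 3 (-0.17), with a range of -0.17 to 0.74 when 1 array was left out. It turned for CGA with 75th percentile scaling after normexp (0.081). No PNCK, CGA or SULF1 difference between the knockdowns passed in any alternative. The cause of these changes was not tested.

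Counts at the unadjusted threshold varied more. In GATA3 knockdown against si-Control there were 1404 genes as reported, 3050 on the processed signal, 2889 in the authors' table, 4832 with brightness as a covariate (24 after adjustment), 922 with only the arrays compared, and 946 to 5987 when 1 array was left out, the highest without si-Control replicate 3. In HIF1A knockdown there were 2471, and 1406 (without HIF1A knockdown replicate 1) to 4813 (without si-Control replicate 1). Between the knockdowns there were 5689, 8630 with only the arrays compared, and 2676 (without GATA3 knockdown replicate 3) to 9728 (without GATA3 knockdown replicate 2). With the replicate block, the counts were 2368, 3984 and 8875, and 0, 6 and 118 genes passed adjustment. The pairing by number, which is also the slide, was clearest for si-Control with GATA3 knockdown, though not for every array. It was weaker for the other comparisons. The block could not change a difference of the 4 genes, because each slide held 1 array of each group. It changed the standard error, such as from 0.43 to 0.23 for SULF1 in GATA3 knockdown. Between the knockdowns, it changed no call of the 4 genes. Of 378 list counts, 260 stayed within 1.5 times the reported count and 118 did not.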
